A study of Homo sapiens with 6 samples.

Results

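The genes described here build and anchor the contractile actin and myosin bundles of non-muscle and smooth muscle cells, and many of them are classical targets of serum response factor (SRF). A total of 10 genes were listed by name: MYH9, the heavy chain of non-muscle myosin IIA; MYL9, a regulatory light chain; ACTA2, smooth muscle alpha-actin; TPM1 and TPM2, tropomyosins; CNN1, CNN2 and CNN3, calponins; TAGLN, transgelin; and VCL, vinculin. A gene was measured where a probe set was annotated with its symbol alone, which held for 8 of the 10, out of 14232 genes with such a probe set on the array. ACTA2 and TAGLN were not measured, because the only probe set of each carried a second symbol (FAS-AS1 and PCSK7). Each of the 8 measured genes had exactly 1 probe set of its own, so the rule of taking the one with the highest mean signal left no choice. The genes were selected on biological role and on earlier fitted differences of the same arrays, with those of MYH9 and CNN2 already known. Their differences are therefore a description, which supports nothing further. In the fit used here, MYH9 and CNN2 had limma unadjusted p of 0.0692 and 0.0861. The SRF targets EGR3 and FOS, which were not listed, had smaller ones (0.0358 and 0.0581), and the limma adjusted p was 0.998 for each.

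SRF is a transcription factor that binds a short element called the CArG box, and it takes its name from its activation by serum. In one branch, polymerisation of actin frees the cofactors MRTFA and MRTFB from actin monomers to enter the nucleus and switch on contractile and cytoskeletal genes with SRF. In the other, ERK-phosphorylated ternary complex factors such as ELK1 act with SRF on early response genes such as FOS and EGR1. Non-muscle myosin II is set in motion when its regulatory light chain is phosphorylated, for example by myosin light chain kinase.

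Transcript levels were measured on 6 arrays of the human line MO3.13, labelled as oligodendroglioma, 3 from control cells and 3 from Klotho-treated cells. The treated cells were exposed to recombinant mouse Klotho at 0.4 µg/mL for 3.5 h in DMEM without serum. The control cells are described as grown in DMEM with 10% fetal bovine serum, the medium in which the treated cells had also been grown, and no serum-free step is named for them. Klotho and the removal of serum can therefore not be told apart, which matters for genes of a serum-activated factor. Nothing in the labels ties the 3 arrays of a group to separate cultures, so the spread between them may be technical. In the literature MO3.13 is described as a hybrid of oligodendrocytes with a rhabdomyosarcoma line.

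The arrays were alike, with r = 0.987 to 0.991 within groups and 0.985 to 0.991 between them, and medians of 6.36 to 6.47 on the log2 scale. The lower quartile, median and upper quartile of mean signal over all 22011 probe sets were 4.7, 6.4 and 8.04, and a probe set below the lower quartile is called dim here. Of the oligodendrocyte markers, 8 of 10 were measured, 6 of these lay above the lower quartile and 1 above the upper quartile, with means from 4.03 to 8.82. The highest was CNP, an early myelin enzyme (8.82); the lineage factor SOX10 had a mean of 5.98 and MBP, myelin basic protein, one of 5.27. Of the skeletal muscle markers, 10 of 12 were measured, 9 lay above the lower quartile and 7 above the upper quartile. Those above the upper quartile included MYOD1 (9.68), MYOG (8.12) and ACTC1 (11.61), whereas MYF6 had a mean of 5.16 and MYF5 (3.63) was dim. Of the smooth muscle markers, 7 of 8 were measured, 4 lay above the lower quartile and 0 above the upper quartile. SMTN had the highest mean (6.67). MYH11, the smooth muscle myosin heavy chain, had a mean of 5.36, and ACTG2 (3.85) and MYOCD (3.76) were dim. The mean log2 signal of the skeletal muscle markers ran from 8.39 to 8.46 on the control arrays and from 8.37 to 8.39 on the treated arrays. Of these markers 7 were lower and 3 higher in treated cells, against 62.6% of all genes lower. DES, desmin, differed by -0.27 (95% interval -0.47 to -0.06, limma unadjusted p 0.019, limma adjusted p 0.998). The mean log2 signal of the smooth muscle markers ran from 4.55 to 4.7 on the control arrays and from 4.61 to 4.68 on the treated arrays. The part of either cell programme in the differences below was not tested.

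RefSeq promoter sequences (GRCh38.p14) were at hand for 8 of the 10 genes, not for TAGLN and MYL9, and gave 11 windows of 250 bases ending just before an annotated start. The CArG box consensus, whose pattern reads the same on both strands, was found in the window of 1 gene, CNN2, and a form with 1 mismatch in that of ACTA2. Of all 35116 RefSeq windows of this length, 1.16% hold the consensus and 16.8% hold it with at most 1 mismatch. The other 6 genes had no match in this window, which says nothing of elements further away. Printed here are CNN2, with the one consensus match; ACTA2, whose second annotated start carries 2 elements that are each 1 base away from the consensus; and MYH9, the gene with the largest difference in signal, which has no match. Capitals mark the CArG boxes, and each sequence runs 5′ to 3′ on the strand of the gene.
CNN2, plus strand, chr19:1026358-1026607: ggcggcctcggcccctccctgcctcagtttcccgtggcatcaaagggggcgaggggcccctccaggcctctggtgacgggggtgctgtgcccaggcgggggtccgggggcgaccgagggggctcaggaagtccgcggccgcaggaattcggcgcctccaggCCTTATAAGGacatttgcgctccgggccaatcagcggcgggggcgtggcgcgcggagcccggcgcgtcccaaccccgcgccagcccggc
ACTA2, minus strand, chr10:88952774-88953023: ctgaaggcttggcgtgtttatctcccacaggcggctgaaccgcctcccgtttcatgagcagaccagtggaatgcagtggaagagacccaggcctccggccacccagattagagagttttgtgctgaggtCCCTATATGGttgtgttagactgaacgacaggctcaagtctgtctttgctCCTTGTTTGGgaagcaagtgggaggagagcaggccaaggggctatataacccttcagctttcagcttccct
MYH9, minus strand, chr22:36387968-36388217: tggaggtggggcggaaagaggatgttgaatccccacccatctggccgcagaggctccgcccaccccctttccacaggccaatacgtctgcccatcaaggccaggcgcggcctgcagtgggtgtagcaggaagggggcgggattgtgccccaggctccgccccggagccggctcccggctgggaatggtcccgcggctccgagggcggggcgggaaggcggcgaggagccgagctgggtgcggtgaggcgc
The CNN2 element, CCTTATAAGG, starts 89 bases before the annotated start. The ACTA2 elements CCCTATATGG and CCTTGTTTGG start 121 and 71 bases before it; 2.89% of all windows hold at least 2 matches with at most 1 mismatch. G and C make up 71.6% of the MYH9 window and 75.2% of the CNN2 window, against 54.0% of this ACTA2 window.

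None of the measured contractile genes passed the test between Klotho-treated and control cells. Differences are given as treated minus control on the log2 scale, from limma fitted to all probe sets, with Benjamini-Hochberg adjustment over all of them and a threshold of 0.05. Of the 8 genes 0 passed, each with a limma adjusted p of 0.998, and 0 had an unadjusted p under 0.05; of all probe sets, 0% passed (smallest limma adjusted p 0.343) and 3.19% had an unadjusted p under 0.05. The differences of the 8 genes had standard errors of 0.08 to 0.14, and all 8 of their 95% intervals stayed inside 1.5-fold up or down, as did those of 91.7% of all genes. The mean was lower in treated cells for 7 of the 8 genes, with a median difference of -0.06, against 62.6% of all genes and a median of -0.03. The number lower was 4 of 8 after median centring, 6 after quantile normalization and 5 after cyclic loess, against 42.7%, 46.8% and 50.3% of all genes.

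**Figure D1:**
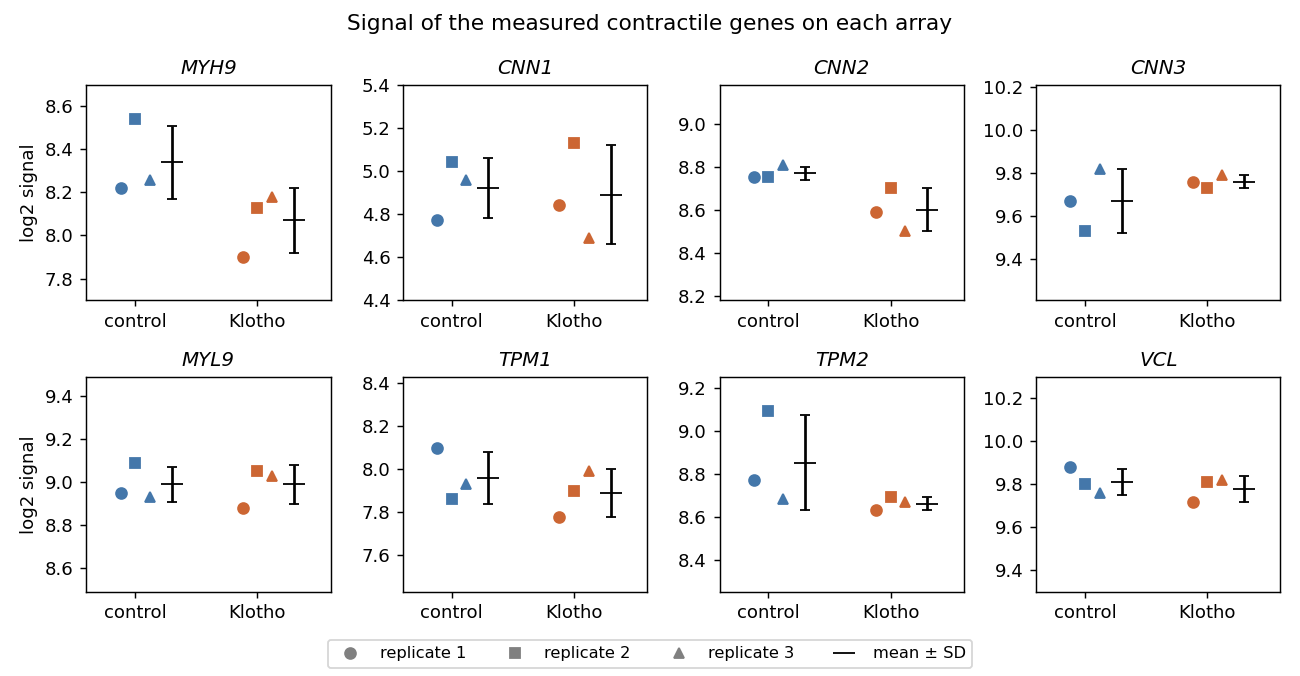
The log2 signal of each of the 8 measured genes on the 3 control and the 3 Klotho-treated arrays, with the mean and SD of each group; every panel spans the same 1 log2 unit. MYH9 and CNN2 are the genes whose treated values all lie below their control values, by a gap of 0.04 in both.

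The motor chains of myosin II come first. MYH9, the heavy chain that forms the bipolar filaments of non-muscle myosin IIA, read 8.22, 8.54 and 8.26 on control arrays 1, 2 and 3 and 7.90, 8.13 and 8.18 on treated arrays 1, 2 and 3 (log2). All 3 treated values were below all 3 control values, but the highest treated and the lowest control value lay only 0.04 apart, and control array 2 and treated array 1 stood away from the others of their group. The means were 8.34 ± 0.17 and 8.07 ± 0.15 (SD, n = 3), a difference of -0.27 (95% interval -0.57 to 0.03), or 0.828 times the control signal (0.672 to 1.02). Without control array 2 the difference was -0.17 and without treated array 1 it was -0.19. MYL9, the regulatory light chain of smooth muscle and non-muscle myosin II, read 8.95, 9.09 and 8.93 on the control arrays and 8.88, 9.05 and 9.03 on the treated arrays. The groups overlapped throughout, with a mean of 8.99 in both (SD 0.08 in control and 0.09 in treated cells, n = 3) and a 95% interval of the difference from -0.22 to 0.21.

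The calponins bind actin and calmodulin and restrain the myosin ATPase or stabilise actin bundles, and the 3 genes gave 3 different readings. CNN2, the widely expressed h2-calponin, read 8.75, 8.75 and 8.81 in control and 8.59, 8.70 and 8.50 in treated cells. The control values were close together and all above the treated ones, with a gap of 0.04 between the nearest values. The means were 8.77 ± 0.03 and 8.60 ± 0.10 (SD, n = 3), with a difference of -0.17 (95% interval -0.37 to 0.03). CNN1, the calponin of differentiated smooth muscle, read 4.77, 5.04 and 4.96 in control and 4.84, 5.13 and 4.69 in treated cells. Its probe set was the one member below the median of all probe sets, and the treated values lay on both sides of the control values (difference -0.04, 95% interval -0.37 to 0.29). CNN3, the acidic calponin of non-muscle cells and brain, read 9.67, 9.53 and 9.82 in control and 9.76, 9.73 and 9.79 in treated cells. It was the only one of the 8 genes with a higher mean in treated cells, 0.08 on the log2 scale (95% interval -0.15 to 0.31), and all its treated values fell inside the control range; without control array 2 the difference was 0.01.

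Among the tropomyosins, which wind along actin filaments and control the access of myosin, TPM2 had the larger difference. TPM2 read 8.77, 9.09 and 8.68 in control and 8.63, 8.69 and 8.67 in treated cells, so that control array 2 stood apart and the remaining 5 values spanned 8.63 to 8.77. The difference was -0.18 (95% interval -0.47 to 0.11), and -0.06 without control array 2. TPM1 read 8.10, 7.86 and 7.93 in control and 7.78, 7.90 and 7.99 in treated cells. Its groups overlapped, with a difference of -0.07 (95% interval -0.32 to 0.17), and without control array 1, the highest, the groups differed by less than 0.01. VCL, the vinculin that links integrin adhesions to actin, read 9.88, 9.80 and 9.76 in control and 9.72, 9.81 and 9.82 in treated cells. The difference was -0.03 with a 95% interval of -0.22 to 0.16.

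**Figure D2:**
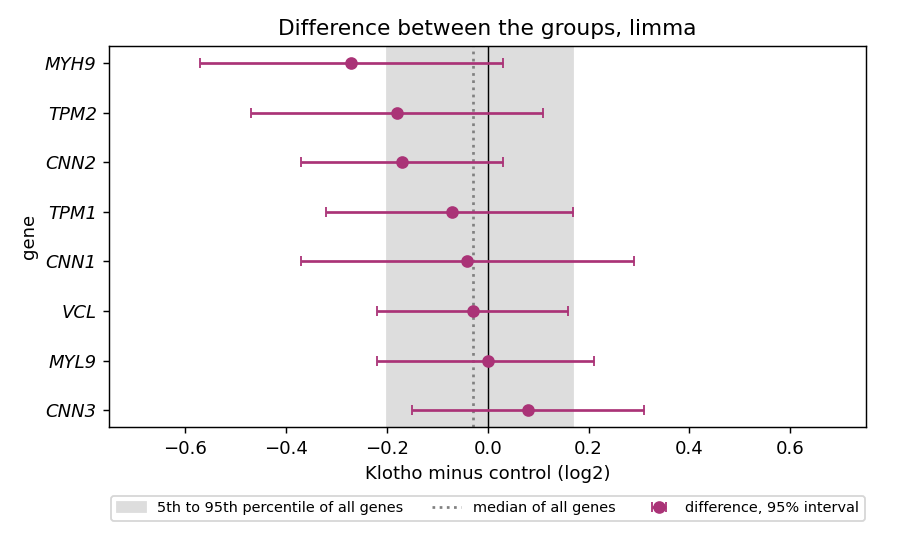
The difference in log2 signal between treated and control arrays for each of the 8 genes (points) with its 95% interval from limma (bars); the grey band holds the 5th to 95th percentile of the difference over all 14232 genes, -0.20 to 0.17. Every interval includes 0, and the point of MYH9, a gene listed with its earlier difference known, lies outside the band.

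The groups did not overlap for 2 of the 8 genes, MYH9 and CNN2, both lower in treated cells, and for 0 on the higher side; of all genes, 5.3% were lower and 2.59% higher without overlap. After centring each array on its median, after quantile normalization and after cyclic loess, the number was 0 of 8 in either direction. Of all genes, 2.14%, 2.71% and 3.27% were then lower without overlap and 4.88%, 3.46% and 3.38% higher. The excess on the lower side seen as deposited was thus gone, with nearly equal shares after cyclic loess. The MYH9 difference was -0.22 to -0.21 and the CNN2 difference -0.12 under these 3 scalings. MYH9 was among the lower genes in size, with 1.91% of all genes at its difference or below; for CNN2 and TPM2 that share was 8.42% and 6.93%. The genes were listed with earlier differences known, so these places are a description. Single arrays recurred across the genes: treated array 1 gave the lowest of the 6 values for 5 of the 8 genes, and control array 2 the highest for 3. The mean log2 signal of the 8 genes was 8.39, 8.46 and 8.39 on the control arrays and 8.26, 8.39 and 8.33 on the treated arrays, so that treated array 2 lay level with control arrays 1 and 3. Over all genes the median deviation of an array from the gene means was also lowest on treated array 1 (-0.037), whereas it was highest on control array 1 (0.049) and not on control array 2 (-0.029). Its part in the result was not tested.

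**Figure D3:**
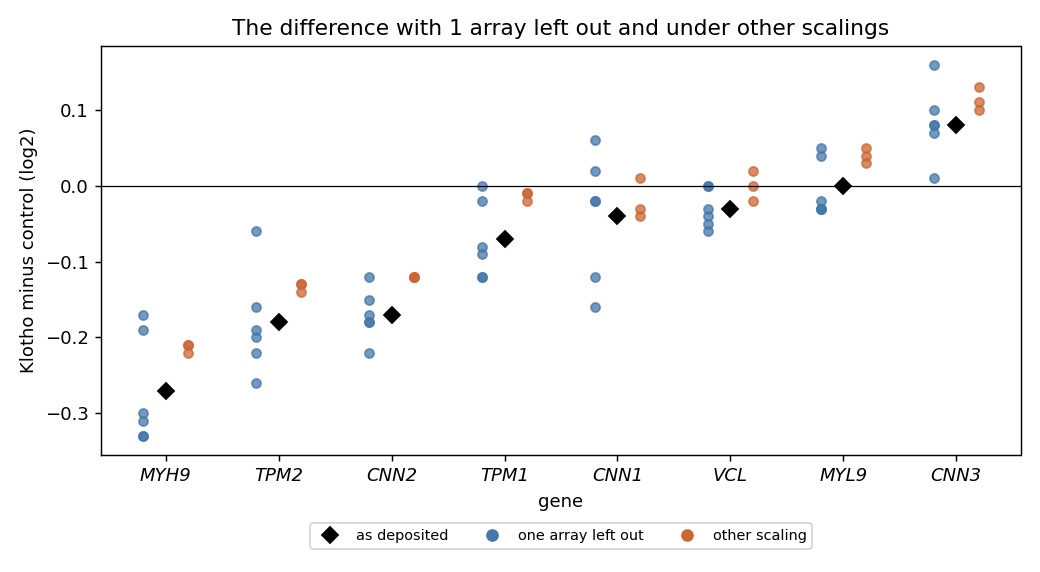
The difference in log2 signal of the 8 genes as deposited (diamonds), with each of the 6 arrays left out in turn (blue) and under 3 other scalings of the arrays (orange). MYH9, TPM2 and CNN2 stayed below 0 in all of these and CNN3 above 0. TPM1 ran from -0.12 to -0.0 without a change of sign, and CNN1, VCL and MYL9 took values on both sides of 0.

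The profile of MYH9 over the 6 arrays was followed only in part by the other contractile genes. Pearson's r to MYH9 was 0.87 for TPM2, 0.69 for MYL9, 0.52 for CNN2, 0.42 for VCL, 0.31 for CNN1, 0.24 for TPM1 and -0.65 for CNN3, over 6 arrays that share their scaling. Among 11308 genes above the lower quartile of signal, the r of TPM2 to MYH9 ranked at place 234. The nearest profiles were those of CRELD1 (r = 0.999), PDCD11 (0.994), HIPK2 (0.993), DYNC1H1, the heavy chain of cytoplasmic dynein (0.993), and ZC3H18 (0.992). All 5 were highest on control array 2 and lowest on treated array 1, and PDCD11 ranged from 8.63 to 7.81 on the log2 scale between these arrays. With 6 arrays and this many genes, values of r this high are a description of the arrays.

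The other genes of the actomyosin and SRF system were taken from 8 lists by role, which held 77 distinct measured genes including the 8. Without the 8 genes there were 69, of which 0 passed the limma threshold over all probe sets, 1 was lower at an unadjusted p under 0.05 and 0 were higher, against 3.19% of all probe sets. The mean was lower in treated cells for 51 of the 69 (73.9%, median difference -0.05), against 62.6% of all genes. With median centring, quantile normalization and cyclic loess it was lower for 34, 36 and 38 of them (49.3%, 52.2% and 55.1%, medians between -0.01 and 0). Of all genes, 42.7%, 46.8% and 50.3% were then lower, and these shares also stand beside the list counts below. In the myosin II list (8 of 9 measured, 5 lower) the other non-muscle heavy chain MYH10 read 9.60, 9.94 and 9.48 in control and 9.13, 9.40 and 9.56 in treated cells. Like MYH9 it was highest on control array 2 and lowest on treated array 1, but its groups overlapped (difference -0.31, 95% interval -0.70 to 0.08). The essential light chain gene MYL6 differed by -0.20 (95% interval -0.47 to 0.07).

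Of the genes that set the phosphorylation of the light chain, 8 of 14 were measured and 5 were lower. CDC42BPB, the kinase MRCK-beta, differed by -0.22 (95% interval -0.48 to 0.05), and PPP1R12A, the targeting subunit of myosin phosphatase, by -0.26 (95% interval -0.64 to 0.12). Of the actin genes 5 of 6 were measured, 3 lower and 2 higher (median difference -0.01). The 2 with the smallest p were the higher ones. ACTA1, skeletal alpha-actin, differed by 0.07 (limma unadjusted p 0.425) and ACTB, cytoplasmic beta-actin, by 0.10 (limma unadjusted p 0.486). ACTB read 12.39 on control array 1 and 12.72 to 12.86 on the other 5 arrays. In the thin filament list (11 of 15 measured, 7 lower) TAGLN2 differed by -0.12 and CALD1, caldesmon, by 0.07. The actin genes are similar in sequence, and whether their probe sets share signal was not tested. The mean signals of the measured actin genes ran from 3.85 (ACTG2) to 12.75 (ACTB).

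Adhesion and crosslinking genes were 13 lower and 2 higher among 15 measured of 22 (10 lower under each of the 3 other scalings). The paxillin gene PXN read 8.66, 8.42 and 8.46 in control and 8.27, 8.39 and 8.28 in treated cells, a difference of -0.20 (95% interval -0.43 to 0.03). Its groups did not overlap as deposited, as was so on the lower side for 5.3% of all genes. CSRP1, a LIM protein of actin bundles, differed by -0.12. Actin turnover genes (13 of 16 measured, 10 lower, and 4 to 6 lower under the other scalings) had TMSB10, a thymosin that binds actin monomers, at 0.12 and CAP2 at 0.10.

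SRF and its partners showed no called difference. SRF read 7.73, 7.81 and 7.91 in control and 7.73, 7.76 and 7.78 in treated cells, a difference of -0.06 (95% interval -0.25 to 0.14), and MRTFA measured 6.61 ± 0.08 and 6.49 ± 0.06 (SD, n = 3). MRTFB had no probe set of its own. The ternary complex factor ELK3 differed by -0.15, and MYOCD, the cofactor of smooth and cardiac muscle, by 0.15 at a dim signal of 3.69 in control and 3.84 in treated cells. Other early SRF targets were 11 lower and 1 higher among 12 measured (median -0.14, against -0.03 over all genes). Under the other scalings 8 or 9 were lower (medians -0.09 to -0.08). The medians over all genes were then 0.02 after median centring, 0.01 after quantile normalization and -0.0 after cyclic loess. EGR3 was the one gene of the 8 lists with an unadjusted p under 0.05, at 5.18, 5.17 and 4.90 in control and 4.61, 4.60 and 4.96 in treated cells; its groups overlapped and its limma adjusted p was 0.998. FOS read 6.05, 6.07 and 5.99 in control and 5.93, 5.86 and 5.67 in treated cells (difference -0.22, 95% interval -0.44 to 0.01). As deposited its groups did not overlap, and neither did those of MYOCD, which was higher. Of all genes, 5.3% were lower and 2.59% higher without overlap. CCN2, a matrix signalling protein gene that answers both MRTF and YAP, measured 8.63 ± 0.08 and 8.61 ± 0.08 (SD, n = 3).

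**Figure D4:**
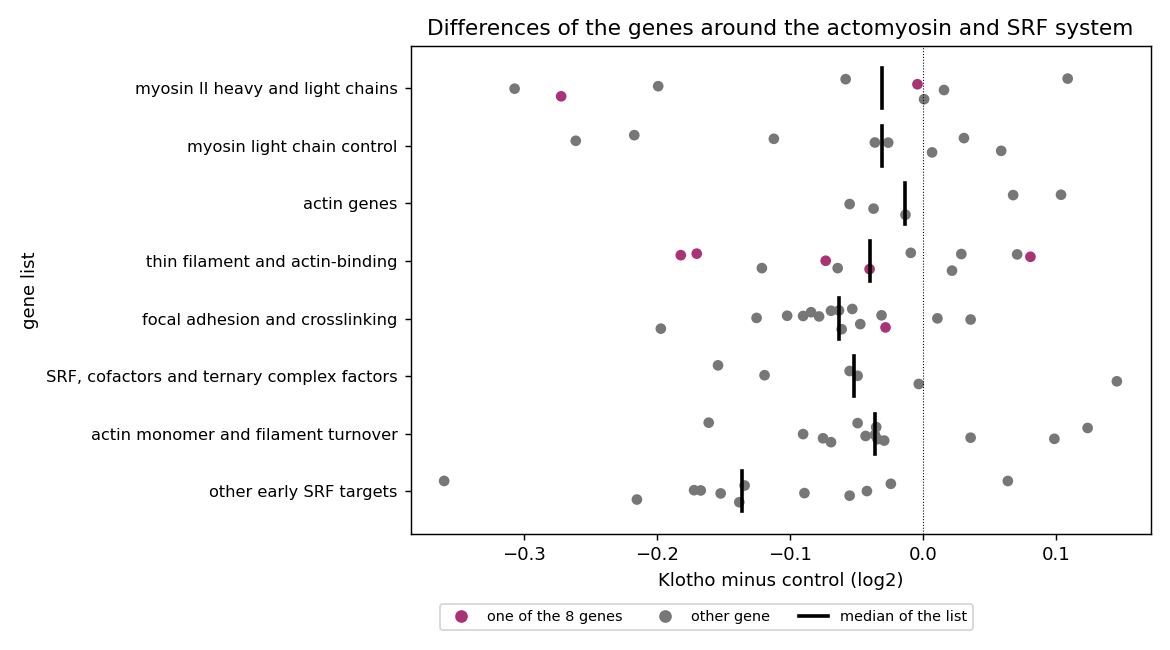
Each point is 1 measured gene, placed by its difference in log2 signal between treated and control arrays, in the 8 lists by role; the 8 contractile genes are in purple and black bars are list medians. The medians lie between -0.14 (other early SRF targets) and -0.01 (actin genes), and no gene passed the limma threshold over all probe sets.

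The presence of a CArG box was also set against the differences over the whole array. There were 188 measured genes whose upstream RefSeq window holds the consensus shown above for CNN2, and 11197 whose windows do not. The mean was lower in treated cells for 121 of the 188 (64.4%, median difference -0.03) and for 64% of the others (median -0.04), and 0 passed in either. The shares were 36.7% and 44.1% after median centring, 42.6% and 47.9% after quantile normalization, and 47.9% and 51.4% after cyclic loess. Of the 88 genes of the 8 lists that the promoter table holds, 19 (21.6%) have the consensus in a window, against 1.44% of all its 27305 genes; the lists include genes picked as known SRF targets. By list these were 4 of 5 actin genes (ACTA1, ACTC1, ACTG1 and ACTG2), 6 of 20 adhesion and crosslinking genes, 4 of 11 other early SRF targets, 3 of 14 thin filament genes, 2 of 12 light chain control genes and 1 of 6 genes of SRF and its partners, SRF itself, which 2 lists hold. The myosin II list had 0 of 7 and the actin turnover list 0 of 14.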

How the data were processed

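The authors deposited log2 values in 1 table, with a value for every probe set on every array. RMA, without a version, is named in the submitters' processing notes; its software and any filter are not given in the sources at hand. Per the labels' protocols, biotinylated cDNA was made by NuGEN amplification from total RNA. Of 22011 probe sets, 14432 had 1 gene symbol in GEO's platform annotation, 2408 several and 5171 none, and all were tested. No symbol was taken from a probe set with several.

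Differences were fitted in R 4.3.3 by limma 3.58.1 (linear model with empirical Bayes variances, 2-sided, Benjamini-Hochberg over all probe sets, threshold 0.05), without a replicate block. The fit was also run on simulated data with independent noise drawn from its own fitted variances. Those data hold no shifts between arrays, so they cannot test how the fit bears such shifts. The 95% intervals use the moderated variance. A gene took its probe set of highest mean. Arrays give no read depth, and their number limits the precision.

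The genes, the lists and the tests were chosen with earlier results of these data known. Named beside the 10 listed genes were the 2 other genes of smallest p per list and the 5 profiles nearest to MYH9. Up to 3 markers per cell type, and DES, were also named. MYF5, MYF6, SMTN, SRF, MRTFA and CCN2 were added after their values were seen. Markers of fibroblasts, endothelium and astrocytes were measured for 9 of 9, 6 of 6 and 5 of 5 genes, with 2, 0 and 0 above the upper quartile of signal. Same-numbered arrays did not deviate together (r = -0.176, 0.064 and -0.139), so the numbers were not taken as pairs. Protein sequences were not used here, and 1 list of pathway genes is not reported here.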

Additional observations from a re-analysis of the deposited data

How the results depend on the processing

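The count of probe sets past the adjusted threshold was 0 under all 14 alternatives that gave one (limma, smallest adjusted p 0.0932 to 1.0). At an unadjusted p under 0.05 there were 436 to 1644, against 703 as deposited. The lowest, 436, came without dim probe sets, where fewer were tested, so 436 and 703 are not out of the same number. The count was 1644 with array quality weights and 1200 without treated array 3. The median difference of the 8 contractile genes was -0.06, -0.01 to -0.03 under the 3 other scalings, -0.03 with array quality weights, -0.06 with the replicate block and -0.12 to -0.02 with each array left out in turn, -0.12 being without treated array 2 and -0.02 without treated array 1. With array quality weights 4 of the 8 genes were lower. The sign of CNN1, MYL9 or VCL changed in 15 instances, at sizes no larger than 0.06. MYH9 ranged from -0.33 to -0.17 over 15 alternatives. Its unadjusted p was under 0.05 in 1 of them (0.0475, limma adjusted p 0.998). This was the fit on the mean of all probe sets of each gene, which leaves out probe sets with no symbol or with several. MYH9 has 1 probe set, so its difference there was still -0.27, and only the genes behind its moderated variance changed. The replicate block changed no call. No detection calls were used, so a bound on the signal of a low probe set such as that of CNN1 need not bound its transcript.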
